A study of Mus musculus with 36 samples.

Results

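Liver from young C57BL/6JN mice, 4 months old, was compared between the sampling times labelled 48 and 72 during regeneration, to describe what follows the first wave of cell division. Members were chosen by label alone: the 3 libraries titled young 72 and the 3 titled young 48, 6 of the 36 libraries of the series. The whole series covers livers of 4 and 18 months, at 6 labelled times (before, then 48, 72, 96, 120, 240), with 3 libraries per age and time. Total RNA from frozen tissue was sequenced after ribosomal RNA removal. The labels give neither the unit of the times nor the procedure that started regeneration. They do not say whether replicates came from separate animals, so p-values measure only the spread between libraries, estimated over all 36 of the series. All groups shared strain, tissue and library kit, and old liver served here only for the same step at 18 months.

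In an uninjured liver nearly all hepatocytes are quiescent, and loss of tissue brings them into the cell cycle in a partly synchronous wave. Genes for DNA synthesis are transcribed first, largely under E2F factors, and genes for mitosis later, under MYBL2, FOXM1 and the MuvB complex. Other cells of the liver, among them stellate cells, which make collagen, typically enter the cell cycle and rebuild the tissue after the hepatocytes.

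Genes that fell between 48 and 72 included 7 for DNA replication, 5 for DNA repair, 4 for mitosis and 3 clustered histones, and genes that rose included 6 for collagens and other matrix proteins, 3 of the circadian clock, H19 and Spp1. The fit called 165 of 13436 genes at an adjusted p under 0.05 (edgeR's quasi-likelihood test on all 36 libraries): 48 were higher at 72, 0.357% of the genes tested, and 117 were lower, 0.871%. The called genes that fell had a median log2 change of -0.89, and those that rose had a median of 1.72. Over all genes tested the median log2 change was -7.26e-05. Groups did not overlap for 1275 genes higher at 72 (9.49%) and 1661 lower at 72 (12.4%), and for 44 of the 48 and 116 of the 117 called genes. Because expression was measured in whole tissue, fewer cells of a type and less RNA per cell cannot be told apart.

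The 6 libraries held 3730281 to 6034446 counts over 15669 to 18039 detected genes, and 3 counts corresponded to 0.490 to 0.776 CPM, the usual unit of counts scaled to library size. Albumin (Alb), the marker of hepatocytes, stood at 7610 to 9286 CPM at 48 and 6929 to 8904 CPM at 72. Replicate 3 of both groups held Y-linked transcripts and the other 4 libraries did not, so the 2 groups were balanced for this split. Replicate 3 of young 72 also stood apart on the second principal component, at -35.8 against -14.4 to 16.7 for the other 5 libraries. Without that library 55 genes were higher and 23 lower. Leaving out young 48 replicate 1 left 0 higher and 7 lower, young 48 replicate 3 left 0 and 13, and young 72 replicate 1 left 0 and 7, whereas 25 and 111 were called without young 48 replicate 2 and 39 and 147 without young 72 replicate 2. Fitted alone, the 6 libraries gave 1 gene higher and 0 lower, with 2081 genes at an unadjusted p under 0.05, against 90 higher and 246 lower with DESeq2 on all libraries. Without replicate 3 of both young groups 0 genes were called in either direction, with 1781 at an unadjusted p under 0.05. Scaling to the total count gave 27 genes higher and 17 lower, so the share of called genes that were higher went from 29.1% to 61.4%. Lin54 was the single named gene called without each of the 6 libraries in turn.

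DNA replication was represented by 40 tested genes of 42 listed, of which 7 were called lower at 72 and 0 higher. Their median log2 change was -1.12, 39 of 40 values were negative, and 31 genes had no overlap between groups. Rrm1, the large subunit of ribonucleotide reductase (chr7:102441695-102469771, GRCm38), was at 101, 70.1 and 80.1 CPM in young 48 replicates 1, 2 and 3 and at 36.9, 43.5 and 20.9 CPM in young 72. All 48 libraries lay above all 72 libraries, and the mean went from 83.8 ± 15.9 to 33.8 ± 11.6 CPM (SD, n = 3), a log2 change of -1.31 ± 0.25 (SE, edgeR adjusted p = 0.0145). Mcm7, a subunit of the replicative helicase (chr5:138164583-138172111), was at 109.5, 85.6 and 86.5 CPM at 48 and 40.7, 42.5 and 25.2 CPM at 72, again without overlap (log2 change -1.37 ± 0.30, edgeR adjusted p = 0.0249). Pcna, the sliding clamp of DNA polymerase (chr2:132249286-132253180), was at 115, 106 and 91.2 CPM at 48 and 37.3, 66.4 and 30.8 CPM at 72, with replicate 2 the highest of the later group (log2 change -1.22 ± 0.27, edgeR adjusted p = 0.0268). Fen1, the flap endonuclease of the lagging strand (chr19:10199132-10204393), fell by 1.41 ± 0.32 on the log2 scale. The clamp loader subunit Rfc5 fell by 1.05, and Slbp, which binds the stem-loop of histone mRNAs, by 0.80. Mcm2, another helicase subunit, and Rrm2, the small subunit of ribonucleotide reductase, had log2 changes of -1.23 and -1.72 with no overlap of groups, but edgeR adjusted p-values of 0.162 and 0.0977. The count of called replication genes was 0 without young 48 replicate 1, young 48 replicate 3, young 72 replicate 1 or young 72 replicate 3, 4 without young 48 replicate 2 and 11 without young 72 replicate 2, while the median stayed between -1.32 and -0.94.

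DNA repair and checkpoint genes gave 5 called lower of 31 tested and 0 higher, with a median log2 change of -1.10 and all 31 values negative. Brca2, of homologous recombination (chr5:150522297-150570147), was at 104, 95.7 and 86.0 CPM at 48 and 37.9, 49.6 and 29.3 CPM at 72. The lowest 48 library was above the highest 72 library, and the mean went from 95.1 ± 8.82 to 38.9 ± 10.2 CPM (SD, n = 3; log2 change -1.29 ± 0.24, edgeR adjusted p = 0.00963). The other called members were Topbp1, an activator of the ATR kinase, at -1.19, Fancm and Fancb, of the Fanconi anaemia pathway, at -0.89 and -1.90, and Xrcc2, also of homologous recombination, at -1.43. Without young 48 replicate 1 or young 72 replicate 1 the list had 0 called genes, without either replicate 3 it had 1, and without either replicate 2 it had 5.

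Mitosis genes gave 4 called lower of 65 tested (69 listed) and 0 higher, and their median log2 change was -1.18, with 62 values negative and 26 genes without overlap. Bub3, of the spindle checkpoint (chr7:131560367-131571895), was at 46.1, 26.4 and 47.1 CPM at 48 and 14.1, 21.1 and 14.0 CPM at 72. Replicate 2 was the lowest at 48 and the highest at 72, and the groups did not overlap (log2 change -1.28 ± 0.23, edgeR adjusted p = 0.00963). Spc25, of the Ndc80 complex that attaches kinetochores to microtubules (chr2:69193895-69206213), was at 87.6, 45.5 and 65.5 CPM at 48 and 35.4, 26.5 and 14.0 CPM at 72 (log2 change -1.38 ± 0.32, edgeR adjusted p = 0.0289). Condensin genes completed the set: Ncapg2 fell by 1.47 and Smc2 (chr4:52439221-52488365) by 1.59 on the log2 scale. Mki67 and Top2a, markers of dividing cells, did not pass the test. Mki67, the Ki-67 antigen, was at 2595, 1404 and 2867 CPM at 48 and 1166, 1694 and 425 CPM at 72, so that replicate 2 of the later group lay above replicate 2 of the earlier one (log2 change -1.06 ± 0.71, edgeR adjusted p = 0.465). Top2a, topoisomerase II alpha, was at 416, 217 and 295 CPM and then 155, 192 and 40.2 CPM, without overlap, and its adjusted p was 0.335. The spread inside the 72 group was wide for this list: its mean log2(CPM + 1) was 4.98, 5.08 and 3.48 in replicates 1, 2 and 3, against 5.99, 5.11 and 6.04 at 48, so the second replicates of the 2 times nearly coincided. The list had 0 called genes without young 48 replicate 1, young 48 replicate 3 or young 72 replicate 1, 3 without either replicate 2 and 1 without young 72 replicate 3, with medians from -1.49 to -0.79. In the 4 libraries without Y-linked transcripts its median was -0.63.

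**Figure D1:**
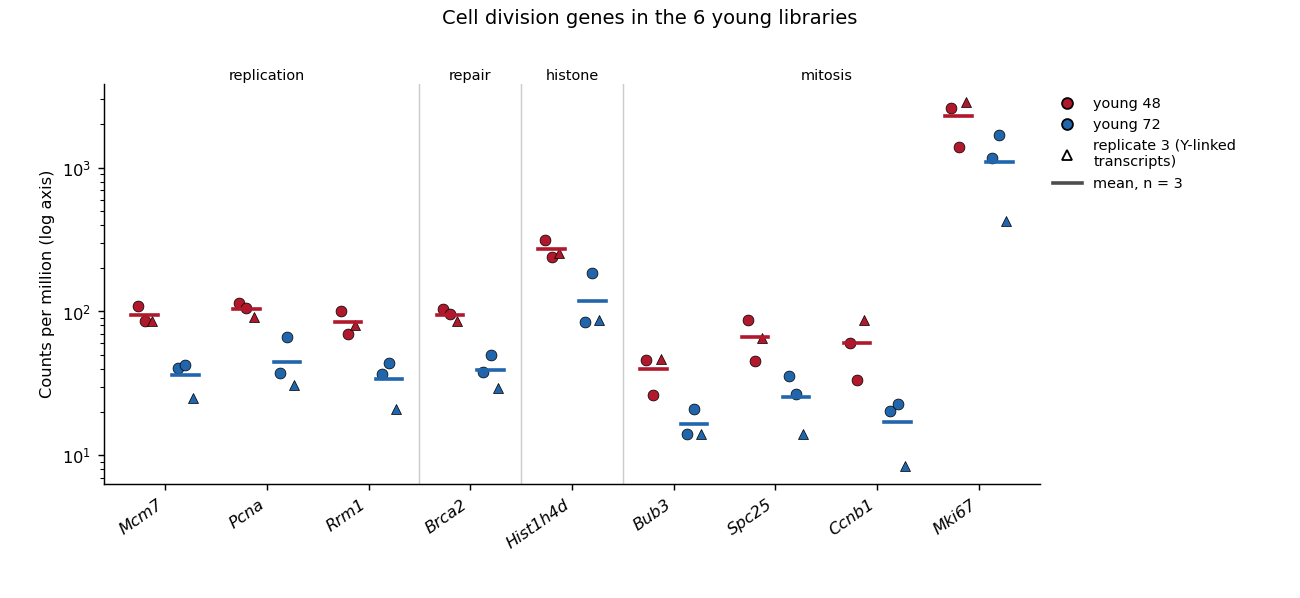
Expression of 9 cell division genes in each library of young liver at 48 and at 72 (CPM, log axis), with triangles for replicate 3 and lines for group means. Rrm1, Mcm7, Brca2 and Bub3 separate the 2 times in every library, whereas Mki67 at 72 spans 425 to 1694 CPM and overlaps the 48 group.

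Among cyclins, CDKs and their activators, 2 of 32 tested genes were called lower and 0 higher (median log2 change -0.75). Lin54, the DNA-binding subunit of MuvB (chr5:100442033-100500639), was at 69.3, 51.0 and 54.2 CPM at 48 and 30.0, 28.4 and 20.4 CPM at 72. The mean went from 58.2 ± 9.78 to 26.3 ± 5.18 CPM (SD, n = 3), close to 21.8 CPM before and 21.3 CPM at 96, and the log2 change was -1.15 ± 0.17 (edgeR adjusted p = 0.00133). Cdk2, the kinase of the G1 to S transition, was at 26.3, 19.7 and 21.2 CPM and then 11.1, 12.9 and 12.7 CPM (log2 change -0.88, edgeR adjusted p = 0.0341). Ccnb1, the mitotic cyclin B1 (chr13:100778739-100786486), had no overlap, with 60.3, 33.1 and 87.0 CPM against 20.3, 22.6 and 8.40 CPM, but an adjusted p of 0.139. Its partner kinase Cdk1 was at 36.3, 17.3 and 34.3 CPM and 17.6, 18.2 and 2.29 CPM, so that replicates 1 and 2 at 72 lay above replicate 2 at 48 (edgeR adjusted p = 0.276). Ube2c, which works with the anaphase-promoting complex, and the factor E2f1 had log2 changes of -1.57 and -0.99 with adjusted p-values of 0.201 and 0.263. Ccnd1, cyclin D1, had a log2 change of 0.23 (adjusted p = 0.895), and -0.19 without young 72 replicate 2. The list kept 1 call without young 48 replicate 1, young 48 replicate 3, young 72 replicate 1 or young 72 replicate 3, 2 without young 48 replicate 2 and 3 without young 72 replicate 2. Among inhibitors of the cycle and p53 targets 1 of 32 was called lower and 0 higher, and the median was -0.10. The called member was Ccng2, an atypical cyclin associated with cell cycle arrest, at 27.8, 26.4 and 23.9 CPM at 48 and 11.3, 7.78 and 9.42 CPM at 72, which is under its mean of 15.6 CPM before (log2 change -1.45 ± 0.31, edgeR adjusted p = 0.0249). Of the 6 leave-outs, that of young 48 replicate 2 kept this call. Cdkn1a, the p21 inhibitor, overlapped between times, with 66.7, 39.3 and 78.4 CPM and 31.2, 61.3 and 29.8 CPM (adjusted p = 0.641).

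Replication-dependent histone genes sit in clusters and are transcribed mainly in S phase; their near-identical copies make the count of any single gene uncertain. Of 63 listed, 54 were tested, all 54 had negative log2 changes with a median of -1.31, 43 had no overlap, and 3 were called lower: Hist1h1e, Hist1h4c and Hist1h4d. Hist1h4d, a histone H4 gene, was at 316, 240 and 255 CPM at 48 and 84.9, 185 and 87.8 CPM at 72 (log2 change -1.18 ± 0.28, edgeR adjusted p = 0.0319). Hist1h1e, a linker histone, was at 662, 512 and 512 CPM and then 208, 415 and 260 CPM. In both genes replicate 2 was the highest of the 72 group, and the list had 22 called genes without that library, 2 without young 48 replicate 2 and 0 without any one of the other 4 libraries, with medians of -1.96 to -1.0. H2afx, which encodes the histone variant phosphorylated at DNA breaks and lies outside the clusters, fell from 271, 164 and 255 CPM to 49.9, 116 and 35.4 CPM (log2 change -1.78 ± 0.41, edgeR adjusted p = 0.0309).

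H2afx was one of the 10 called genes with the largest decrease, named with Smc2, Fancb, Chil1, Cenpu, Lsm3, Tuba1b, Hat1, Mcm8 and Gemin6. This ranking leaves out predicted genes, genes whose groups overlap and genes with a mean CPM under 1. Hat1, which acetylates newly made histone H4, was at 20.1, 14.5 and 12.6 CPM at 48 and 4.97, 7.05 and 3.82 CPM at 72 (log2 change -1.58 ± 0.30, edgeR adjusted p = 0.0133). Gemin6, of the SMN complex that assembles spliceosomal particles, was at 16.3, 14.0 and 13.3 CPM and then 4.59, 6.81 and 3.56 CPM (log2 change -1.54 ± 0.27, edgeR adjusted p = 0.0078). Both genes separated the 2 times in all libraries. The others of this set that fell were Cenpu, a kinetochore protein, by 1.98, Lsm3, of the U6 particle, by 1.65, Mcm8, a helicase of recombination, by 1.56, and the tubulin gene Tuba1b, whose family shares sequence, by 1.59. Chil1, a secreted chitinase-like protein, rested on few reads, 48 counts at 48 and 3 at 72, a ratio of 15.1 with a 95% exact interval of 4.87 to 75.9 that covers counting error only. Of the 6 leave-outs, those of young 48 replicate 2 and young 72 replicate 2 kept the calls of H2afx, Cenpu and Tuba1b, those 2 and young 48 replicate 3 kept Hat1, and all but young 48 replicate 1 and young 72 replicate 1 kept Gemin6. Lsm3 was called without young 72 replicate 2, Mcm8 without young 48 replicate 2, and Chil1 in none of them.

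Upstream windows of genes that fell are printed because factors of the division programme are known to bind such windows. Genes and motifs were set by hand, and windows without the motif were passed over. For a gene with several transcript starts, the window whose motif lay nearest its start was taken. Every printed window therefore holds its motif, and the printed set does not show how common a motif is. They come from RefSeq on GRCm38.p6, 200 bases ending just before the transcript start, with a matching motif in capitals. Several motifs were looked for on both strands of 250 bases upstream: an E2F form (TTTCCCGC, TTTCGCGC, TTTGCCGC or TTTGGCGC), the cell cycle homology region or CHR (TTTGAA or TTCGAA), the CCAAT box, and the E-box CACGTG. The E2F form is shown for Brca2 (chr5:150522421-150522620, plus strand), the CHR for Fen1 (chr19:10204394-10204593, minus strand) and Smc2 (chr4:52439021-52439220, plus strand), and the CCAAT box for Rrm1 (chr7:102441495-102441694, plus strand), Spc25 (chr2:69206214-69206413, minus strand) and Hist1h4d (chr13:23581368-23581567, plus strand).
Brca2: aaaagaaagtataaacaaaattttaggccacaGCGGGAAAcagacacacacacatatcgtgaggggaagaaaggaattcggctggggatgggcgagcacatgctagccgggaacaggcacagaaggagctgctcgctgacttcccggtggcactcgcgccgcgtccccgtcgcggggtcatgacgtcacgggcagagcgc
Fen1: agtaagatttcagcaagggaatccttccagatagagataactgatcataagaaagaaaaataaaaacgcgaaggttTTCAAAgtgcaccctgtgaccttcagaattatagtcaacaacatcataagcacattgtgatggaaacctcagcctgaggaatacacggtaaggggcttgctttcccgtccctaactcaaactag
Smc2: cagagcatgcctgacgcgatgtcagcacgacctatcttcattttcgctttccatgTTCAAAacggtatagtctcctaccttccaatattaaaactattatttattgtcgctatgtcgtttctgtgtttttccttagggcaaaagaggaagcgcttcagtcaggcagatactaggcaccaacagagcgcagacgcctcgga
Rrm1: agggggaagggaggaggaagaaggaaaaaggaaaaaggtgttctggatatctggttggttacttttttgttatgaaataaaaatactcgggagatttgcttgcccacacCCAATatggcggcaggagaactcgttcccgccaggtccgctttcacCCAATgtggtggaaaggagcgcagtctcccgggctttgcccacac
Spc25: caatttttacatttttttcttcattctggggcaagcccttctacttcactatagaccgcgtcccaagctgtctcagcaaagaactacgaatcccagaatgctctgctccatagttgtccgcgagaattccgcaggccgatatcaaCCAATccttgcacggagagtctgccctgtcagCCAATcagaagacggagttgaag
Hist1h4d: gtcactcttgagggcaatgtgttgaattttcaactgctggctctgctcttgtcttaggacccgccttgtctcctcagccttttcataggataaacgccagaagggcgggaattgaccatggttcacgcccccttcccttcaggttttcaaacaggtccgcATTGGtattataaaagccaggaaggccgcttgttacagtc
Annotated exons covered 0 bases of these windows. The Brca2 window lies inside the span given above for the gene, before a transcript that starts downstream of the gene's first base. The capitals start 168 bases before the transcript start in Brca2, 124 in Fen1, 145 in Smc2, 91 and 45 in Rrm1, 55 and 23 in Spc25 and 40 in Hist1h4d. Windows were found for 100 of the 117 genes that fell, 123 windows in all. The E2F form was in 14.6% of them, against 3.17% of the 13495 windows of all tested genes and 1.86% of the 32851 windows of the table. The CCAAT box was in 51.2% against 35.3% and 33.8%, the CHR in 25.2% against 12.9% and 17.1%, and the E-box in 7.32% against 8.07% and 6.02%. Among the 43 windows of 35 of the 48 genes that rose, 0% held the E2F form, 34.9% the CCAAT box, 18.6% the CHR and 4.65% the E-box. By list, replication genes had the E2F form in 23.7% of windows, the CHR in 15.8% and the CCAAT box in 57.9%. Mitosis genes had them in 9.38%, 40.6% and 67.2%, clustered histones in 14.3%, 46.9% and 83.7%, and clock genes in 0%, 0% and 63.6%. A match describes the letters and is neither a site nor a cause.

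Collagen genes were among those that rose most. Of 35 tested genes of the stellate cell and matrix list (36 listed), 6 were called higher and 0 lower. Positive log2 changes were found in 34, 13 were higher without overlap, and the median was 1.09. At an unadjusted p under 0.05, 23 of the 35 were higher, against 969 of all 13436 genes tested. Col1a1, the alpha 1 chain of type I collagen (chr11:94936224-94953042), was at 17.8, 23.8 and 22.9 CPM at 48 and 233, 180 and 27.5 CPM at 72. Replicates 1 and 2 at 72 were far above every 48 library, and replicate 3 was just above the highest of them. The mean went from 21.5 ± 3.23 to 147 ± 107 CPM (SD, n = 3; log2 change 2.78 ± 0.63, edgeR adjusted p = 0.0274). Col3a1, the type III collagen chain (chr1:45311538-45349706), had the same order, at 39.2, 46.3 and 35.2 CPM at 48 and 301, 303 and 57.3 CPM at 72 (log2 change 2.45 ± 0.51, edgeR adjusted p = 0.021). Fbn1, fibrillin of the microfibrils, was at 11.1, 7.76 and 8.38 CPM and then 28.9, 36.5 and 11.5 CPM (log2 change 1.48). The other called members were Col1a2 (2.27), Col5a2 (1.96) and the gelatinase Mmp2 (1.78). The summed level of the list was 935 to 1003 CPM at 48 and 972 to 2354 CPM at 72, with replicate 3 the lowest. Without young 48 replicate 1, young 48 replicate 3 or young 72 replicate 1 the list had 0 called genes, without either replicate 2 it had 2, and without young 72 replicate 3 it had 12, with medians from 0.81 to 1.42.

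The next ranking leaves out predicted genes, genes whose groups overlap and genes with a mean CPM under 1. Within it the 10 called genes with the largest increase were Col1a1, Col3a1, Adamts12, Cpxm1, Ssc5d, Azin2, Tril, Gpnmb, Ciart and Dbp. Adamts12, a secreted metalloprotease, was at 2.78, 1.29 and 2.71 CPM at 48 and 13.0, 16.8 and 4.58 CPM at 72 (log2 change 2.3 ± 0.51, edgeR adjusted p = 0.0268). Cpxm1, a carboxypeptidase-like protein, was at 0.980, 0.776 and 0.986 CPM and 7.27, 8.99 and 3.31 CPM (log2 change 2.79). Replicate 3 was again the lowest of the 72 group in both, without overlap. Ssc5d, a secreted scavenger receptor protein, went from 3 to 30 counts over the group (ratio 10.6, 95% exact interval 3.29 to 54.2), Azin2, an antizyme inhibitor, from 4 to 28 (7.41, 2.59 to 29.1), and Tril, a partner of TLR4, from 5 to 43 (9.10, 3.61 to 29.4). These intervals cover counting error only. Adamts12, Cpxm1 and Tril kept their calls without young 72 replicate 3 and lost them without any one of the other 5 libraries. Azin2 kept its call without young 72 replicate 2, and Ssc5d without either replicate 2 or young 72 replicate 3.

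Markers of other cells gave few calls. Of 12 tested genes for monocytes and recruited macrophages (16 listed, with Ly6c2 among the 4 not tested), 1 was called higher, the median was 1.12 and 11 of 12 values were positive. That gene, Gpnmb, a glycoprotein of phagocytic macrophages (chr6:49036518-49058182), was at 0.490, 0 and 0.493 CPM at 48 and 21.6, 21.6 and 0.509 CPM at 72. Replicates 1 and 2 at 72 held nearly all of its 204 counts, against 5 counts at 48 (ratio 43.2, 95% exact interval 18.2 to 134). Its log2 change was 5.27 ± 1.36 (edgeR adjusted p = 0.0488), and no leave-out kept the call except that of young 72 replicate 3. The summed level of this list, which its few most abundant members dominate, was 1643 to 1830 CPM at 48 and 1596 to 1890 CPM at 72. Its mean log2(CPM + 1), which weighs members equally, was 2.97, 3.01 and 2.78 at 48. At 72 it was 4.04, 4.18 and 3.03 in replicates 1, 2 and 3. Mesothelial markers had a median of 1.39 over 6 tested of 8, with 0 called and 4 without overlap, and summed to 7.15 to 15.3 CPM at 48 and 26.2 to 32.7 CPM at 72. Among them Wt1, a transcription factor of mesothelium, had the smallest p, at 0.327, 0.776 and 0.493 CPM and then 4.02, 1.94 and 1.78 CPM (edgeR adjusted p = 0.141). Antigen-presenting cell markers had a median of 0.90 over 10 tested of 13 and 0 called, and summed to 27.1 to 54.1 and 50.6 to 97.2 CPM. Kupffer cells (14 tested, median -0.17, summed level 929 to 1240 and 848 to 1064 CPM) and sinusoidal endothelium (20 tested, median 0.02, 720 to 875 and 745 to 882 CPM) had 0 called genes. Few lymphocyte and neutrophil markers passed the filter on low counts, with 5 of 15 tested for T cells, where Cd3e and Cd4 were among those not tested, 7 of 12 for B and plasma cells, 2 of 10 for NK cells and 6 of 14 for neutrophils, and 0 were called. Markers of erythroid cells, platelets and pancreas had 4, 3 and 1 tested genes and 0 calls. Over the 11 cell type lists without a call, 9 genes were higher and 1 lower at an unadjusted p under 0.05, and DESeq2 called 0. Among all 13436 genes tested, 969 were higher and 1308 lower at that threshold. The monocyte, mesothelial and antigen-presenting medians were positive, like that of the matrix genes, and their part in the matrix result was not tested.

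**Figure D2:**
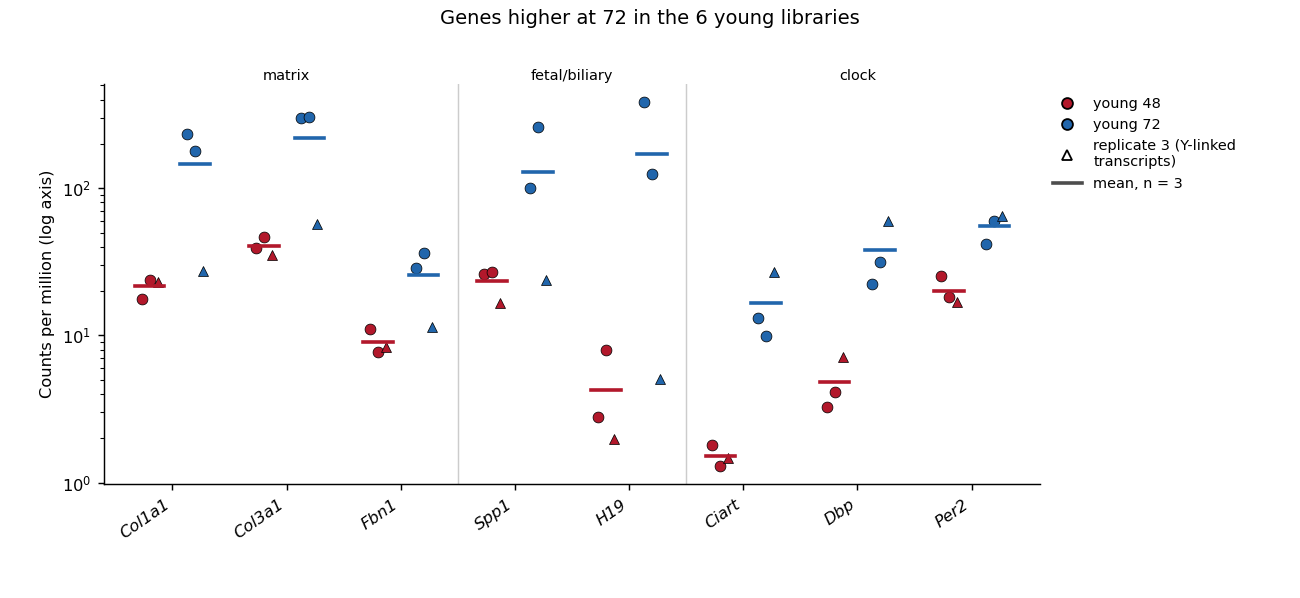
Expression of 8 called genes that were higher at 72 in each library of young liver (CPM, log axis), with triangles for replicate 3 and lines for group means. Within the 72 group replicate 3 is the lowest library for Col1a1, Col3a1, Fbn1, Spp1 and H19 and the highest for Ciart, Dbp and Per2.

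Genes of fetal liver and biliary cells had 2 called higher of 15 tested (22 listed) and 0 lower, with a median log2 change of 0.53. H19, an imprinted non-coding RNA of fetal liver (chr7:142575530-142578146), was at 2.78, 8.02 and 1.97 CPM at 48 and 386, 126 and 5.09 CPM at 72. Replicate 3 at 72 lay inside the range of the 48 group, so the groups overlapped in spite of the call (log2 change 5.38 ± 1.32, edgeR adjusted p = 0.0372). Spp1, osteopontin, made by bile duct cells and macrophages (chr5:104435111-104441053), overlapped likewise, at 26.3, 27.2 and 16.5 CPM and 101, 261 and 23.7 CPM (log2 change 2.46 ± 0.61, edgeR adjusted p = 0.0405). Krt19, the bile duct keratin, was at 1.63, 2.85 and 0.49 CPM and 5.35, 9.24 and 3.56 CPM, and its log2 change of 1.86 did not pass (adjusted p = 0.147). Afp, alpha-fetoprotein, had a log2 change of -0.17, and 0.02 without young 72 replicate 1. The list had 0 calls without any one of the 48 libraries or young 72 replicate 1, 1 without young 72 replicate 2 and 2 without young 72 replicate 3. The bile duct marker list, which shares Spp1, Krt19 and Sox9 with it, had 1 called of 6 tested, with Krt7 and Epcam among those not tested, a median of 0.83, and summed levels of 250.3 to 267 CPM at 48 and 224 to 512 CPM at 72.

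The circadian clock is a loop in which ARNTL and CLOCK activate Per, Cry and Nr1d genes, whose products repress them, and outputs such as Dbp follow; the time of day of sampling is not in the labels. Of 20 tested genes, 3 were called higher and 0 lower, and the median log2 change was 0.62, with 13 positive and 7 negative values. Ciart, a repressor of the loop (chr3:95878500-95882257), was at 1.80, 1.29 and 1.48 CPM at 48 and 13.2, 9.97 and 27.0 CPM at 72. Every 72 library was above every 48 library, and the mean of 16.7 ± 9.04 CPM remained under the 28.4 CPM before and the 32.8 CPM at 96 (log2 change 3.40 ± 0.79, edgeR adjusted p = 0.0309). Dbp, an output factor (chr7:45705100-45710203), was at 3.27, 4.14 and 7.15 CPM and 22.4, 31.4 and 59.6 CPM, and averaged 82.4 CPM before and 85.0 CPM at 96 (log2 change 2.98 ± 0.71, edgeR adjusted p = 0.0345). Per2, a repressor (chr1:91415977-91459351), was at 25.3, 18.4 and 16.8 CPM and 41.9, 59.8 and 64.9 CPM (log2 change 1.45 ± 0.37, edgeR adjusted p = 0.0488). Among members that were not called, Per3 and Nr1d1 had log2 changes of 1.71 and 1.23 and the activators Arntl and Clock -1.13 and -0.76, with adjusted p-values of 0.0802, 0.212, 0.242 and 0.0636. These 4 were singled out after their values were seen. The list had 2 called genes without young 72 replicate 2 and 0 without any one of the other 5 libraries. The window upstream of Ciart (chr3:95882229-95882428, minus strand, RefSeq, GRCm38.p6), shown for the E-box bound by ARNTL and CLOCK, held CACGTG 3 times, at 116, 58 and 44 bases before the transcript start, in capitals. An annotated exon stretch covered 23 of its bases, and the window partly overlapped the span given above for the gene. This window too was chosen because it holds the motif.
Ciart: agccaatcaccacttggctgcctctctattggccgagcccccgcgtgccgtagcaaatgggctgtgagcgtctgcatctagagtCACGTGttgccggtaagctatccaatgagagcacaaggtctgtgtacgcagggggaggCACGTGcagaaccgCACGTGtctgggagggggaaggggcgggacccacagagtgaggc
E-boxes were in 27.3% of the 22 windows of 17 clock genes, against 8.07% of windows of all tested genes.

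Hepatocyte functions gave 1 call. Alb had a log2 change of -0.07 (adjusted p = 0.916), and 0 of 32 secreted protein genes were called (median -0.06). Among 23 hepatocyte transcription factors the called gene was Esrra, a nuclear receptor that controls mitochondrial genes, at 28.8, 26.1 and 33.3 CPM at 48 and 45.3, 38.7 and 57.8 CPM at 72 (log2 change 0.68 ± 0.17, edgeR adjusted p = 0.0381), a call kept only without young 72 replicate 2 among the leave-outs. In the lists of cytochrome P450 and conjugation enzymes (36 genes, median 0.01), urea cycle and amino acid catabolism (29, 0.26), gluconeogenesis (22, 0.06), fatty acid oxidation (29, -0.35), lipogenesis (31, 0.22), cholesterol synthesis (24, -0.09), bile acids (25, -0.04) and pericentral Wnt targets (25, -0.24), 0 genes were called in either direction by edgeR and 0 by DESeq2. With 1 library left out at a time, edgeR called up to 2 genes of the urea cycle list higher, and 0 genes of the other lists named here. At an unadjusted p under 0.05, 969 of all 13436 genes tested were higher and 1308 lower. Counted per list, 13 genes of these 8 lists were higher and 7 lower at that threshold. The smallest p among them was that of Hgd, which degrades homogentisate from tyrosine, at 40.5, 46.8 and 47.6 CPM and then 94.8, 55.4 and 83.7 CPM (log2 change 0.80, edgeR adjusted p = 0.088). Acot1, a thioesterase of fatty acyl-CoA, was at 80.4, 39.8 and 84.8 CPM and then 21.0, 28.9 and 24.4 CPM, and Oat, a pericentral aminotransferase of ornithine, at 1046, 789.6 and 1096 CPM and 269, 472 and 648 CPM. Both had no overlap, and neither passed (edgeR adjusted p = 0.141 and 0.121). Values were spread at 72: Cyp2e1, a pericentral P450, was at 1436, 1684 and 1145 CPM at 48 and 575, 1030 and 2310 CPM at 72, and its log2 change of -0.12 was 0.01, 0.22 and 0.02 without young 48 replicate 2, young 72 replicate 1 and young 72 replicate 2. Cyp7a1, the rate-limiting enzyme of bile acid synthesis, had a log2 change of 1.04 (adjusted p = 0.606), Cps1, the first enzyme of the urea cycle, 0.24, and Pck1, of gluconeogenesis, 0.09. Acute phase genes had 0 calls, 22 of 28 negative values and a median of -0.39, with 2 genes lower at an unadjusted p under 0.05. Saa1, serum amyloid A, was at 1790, 1756 and 1304 CPM and 394, 197 and 955 CPM, without overlap (log2 change -1.65 ± 0.98, edgeR adjusted p = 0.401), and Lcn2, lipocalin, had a log2 change of -0.62. Ribosome biogenesis, ribosomal proteins, oxidative phosphorylation, protein folding stress, immediate early genes, growth factors, and metallothioneins and iron also had 0 calls, with medians of -0.05, -0.18, -0.22, -0.05, 0.08, 0.09 and 0.04, 8 genes higher and 12 lower at an unadjusted p under 0.05, and 0 by DESeq2. Interferon-stimulated genes had 31 of 32 positive values, 17 genes without overlap and a median of 0.75, but 0 calls by edgeR or DESeq2 and 1 gene at an unadjusted p under 0.05. That gene was Irf1, an interferon-induced transcription factor, at 37.4, 47.3 and 37.2 CPM and then 69.6, 56.1 and 65.2 CPM (log2 change 0.65, edgeR adjusted p = 0.221). Hgf, the growth factor that drives hepatocyte division and is made by stellate and endothelial cells, overlapped, at 24.8, 28.2 and 20.5 CPM and 18.9, 27.2 and 24.7 CPM (adjusted p = 0.951).

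**Figure D3:**
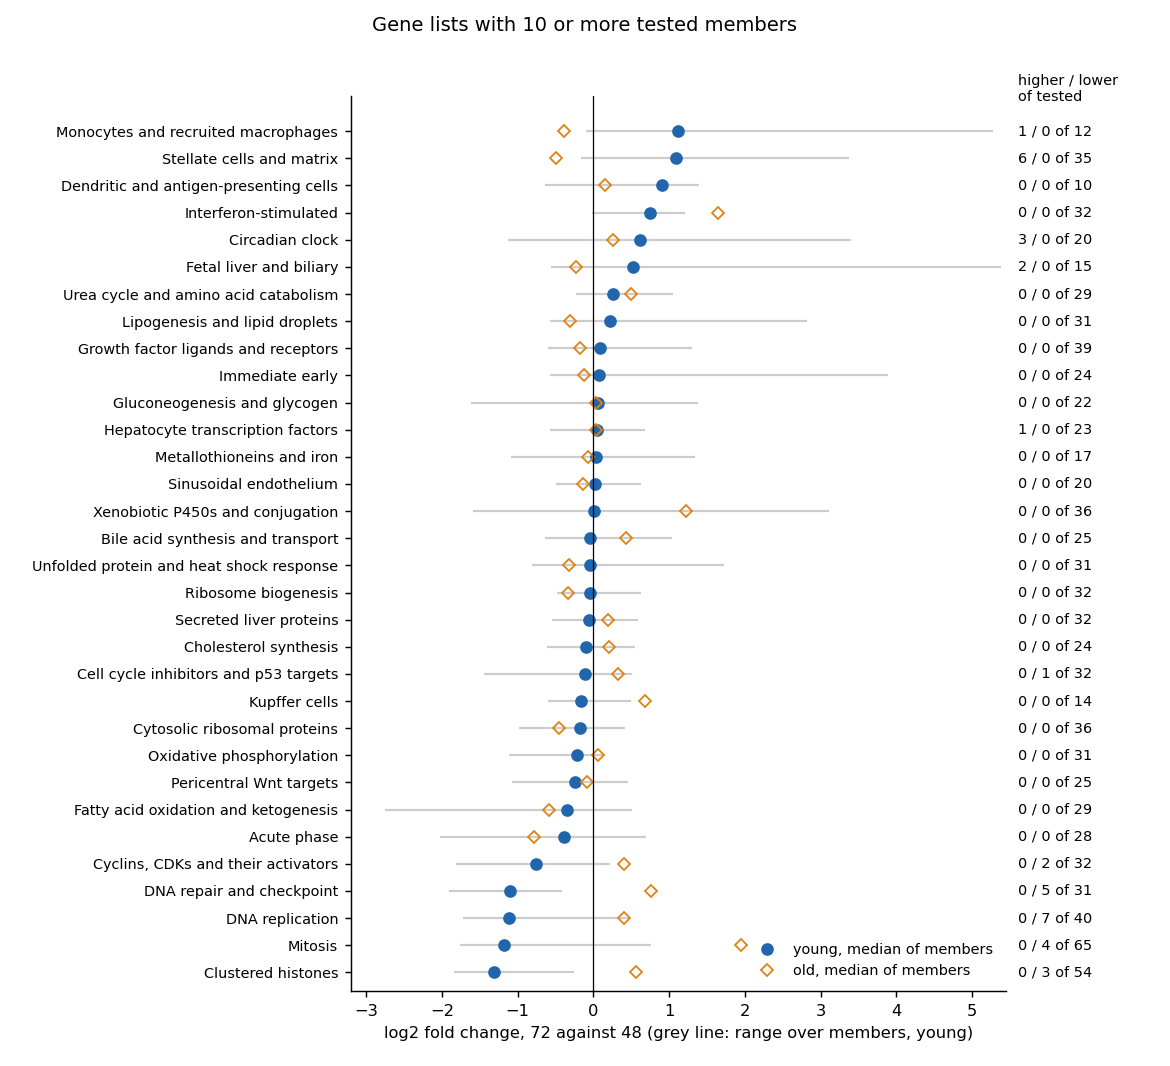
Median log2 change from 48 to 72 of each gene list with at least 10 tested members, in young and in old liver, with the range over members in young liver and the number called. The replication, repair, mitosis and histone lists lie between -1.31 and -1.10 in young liver, matrix genes at 1.09, and the 8 metabolic lists between -0.35 and 0.26.

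For cell division genes, young 72 lay between young 48 and the level before. The mean log2(CPM + 1) of replication genes went from 2.58 before to 4.69 at 48, then 3.73 at 72 and 3.05 at 96, and that of mitosis genes was 1.71, 5.72, 4.51 and 2.94. Histones followed with 2.92, 5.96, 4.59 and 3.86. Of the 117 genes that fell, 81 were still above their mean before regeneration at 72 and 36 were below it. Matrix genes had another order of times: their level of 3.67 before and 3.86 at 48 became 4.81 at 72 and 4.80 at 96, and then 4.14 at 120 and 3.92 at 240. The clock list went from 5.89 before to 4.86 at 48, 5.40 at 72 and 5.78 at 96. In libraries that the step does not use, young 96 against before, edgeR called 92 genes higher (0.685% of those tested) and 101 lower (0.752%). Of the 48 genes that rose from 48 to 72, 9 were higher at 96 than before and 0 lower, among them Col1a1 (log2 difference 3.56, edgeR adjusted p = 0.00621), Col3a1 (2.59, 0.00909) and Gpnmb (5.50, 0.0396). At 96, Col1a1 was at 119, 234 and 22.1 CPM, and Gpnmb at 0.335, 44.7 and 0.276 CPM, so that 1 library carried the latter. Of the 117 genes that fell, 0 were higher and 2 lower.

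**Figure D4:**
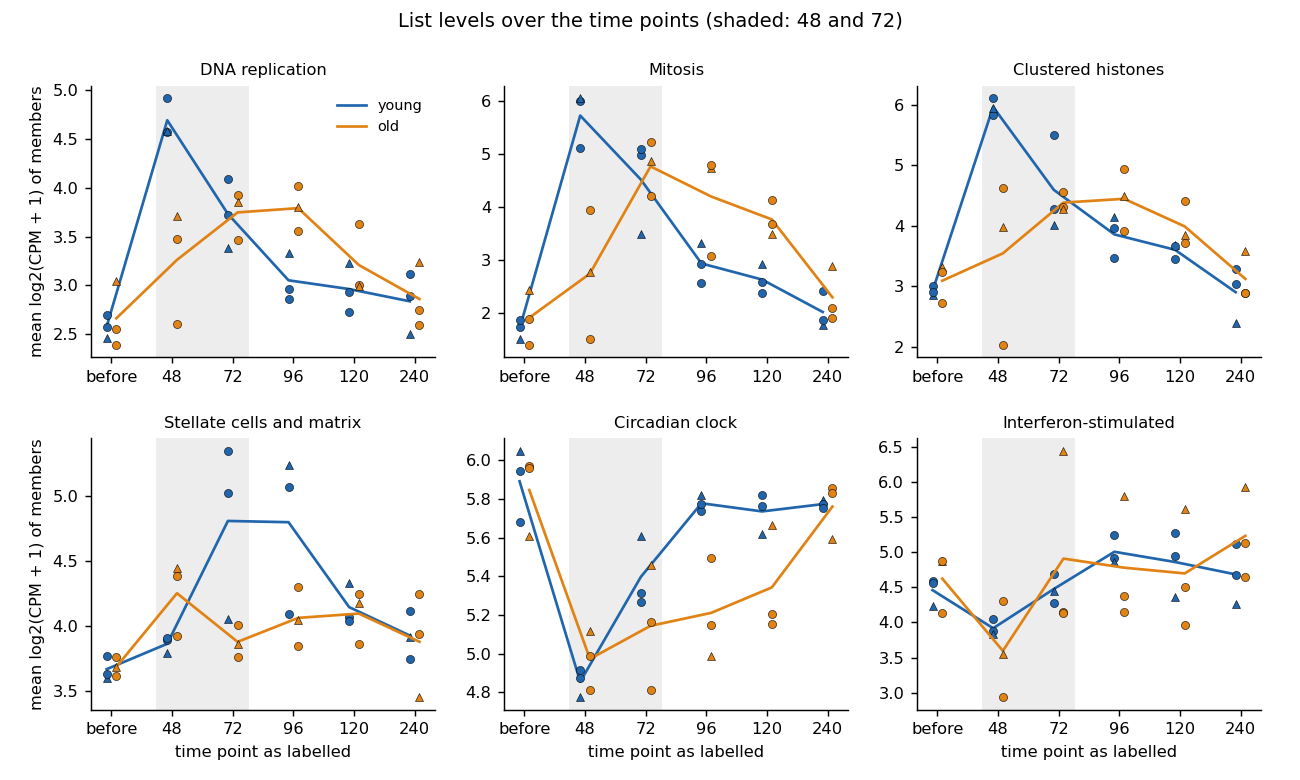
Mean log2(CPM + 1) of 6 gene lists at each labelled time in young and old liver, with 1 point per library and lines through the group means. In young liver the cell division lists peak at 48 and are lower at 72, and matrix genes are higher at 72 and 96.

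Old 72 against old 48 gave 212 genes higher (1.58%) and 181 lower (1.35%), and the difference between the steps, old minus young, was called for 320 genes, 260 positive (1.94%) and 60 negative (0.447%). Fitted alone, the 12 libraries compared gave 0 positive and 0 negative differences, with a smallest adjusted p of 0.184 and 1407 genes at an unadjusted p under 0.05, and libraries without Y-linked transcripts gave 5 and 4. The groups that share 1 estimate of spread were unequal, with a within-group biological variation (edgeR, as a coefficient) of 40.6% for old 48, 24.9% for old 72, 19.4% for young 48 and 23.8% for young 72. Of the 117 genes that fell in young liver, 70 had a called difference, all positive, and of the 48 that rose, 16 had one, all negative. The young values enter both the choice of these genes and the difference, so the direction of those counts follows in part from the choice. In old liver itself, 1 of the 117 was called higher and 2 lower, and their median log2 change was 0.20. The corresponding figures for the 48 were 1 higher, 2 lower and -0.02. Mitosis genes had a median of 1.95 in old liver, with 22 of 65 called higher, and 46 had a called positive difference between ages. Replication genes had an old median of 0.40 with 0 called and 9 called differences, histones 0.56 with 0 and 7, and repair genes 0.76 with 0 and 11. Matrix genes had an old median of -0.50 with 0 called and 7 called negative differences.

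The 4 genes with the smallest unadjusted p for the age difference were Cdkn2c, Eri2, Gas2l3 and Lin54. Their edgeR adjusted p of 0.00658 was shared by Cpxm1 and by genes not named. Cdkn2c, an inhibitor of CDK4 and CDK6, was at 189, 101 and 201 CPM in young 48 and 74.0, 90.4 and 29.8 CPM in young 72, but at 16.2, 13.2 and 40.7 CPM in old 48 and 59.5, 119 and 58.8 CPM in old 72. The order of the times was opposite at the 2 ages, without overlap in either (difference 3.09 ± 0.53 on the log2 scale). The young change of Cdkn2c was itself not called. Gas2l3, a cytoskeletal linker of cytokinesis, had the same pattern (difference 2.79), again without a call for the young change. Eri2, of an exonuclease family, had it too (2.22), and its young change was called. Lin54 was at 23.3, 22.5 and 25.4 CPM in old 48 and 28.3, 27.8 and 27.2 CPM in old 72, both near the level of young 72 (difference 1.37 ± 0.24). Ccnb1 was at 1.56, 0 and 9.0 CPM in old 48 and 13.8, 43.1 and 34.1 CPM in old 72, a log2 change of 3.08 (edgeR adjusted p = 0.0277) and a difference from the young step of 4.89 ± 0.97. Col1a1 was at 48.0, 18.4 and 15.8 CPM in old 48 and 12.1, 22.0 and 16.8 CPM in old 72, overlapping, with a difference of -3.47 ± 0.88. For Cpxm1 the highest old 48 library, replicate 2, had 16.8 CPM and the 3 old 72 libraries had 1.03 to 1.72 CPM (old log2 change -2.52, difference -5.31). For the clock genes Ciart, Dbp and Per2 the difference did not pass (adjusted p-values 0.271, 0.523 and 0.284). Counts of called differences varied with single libraries. Positive and negative ones were 555 and 293 without old 48 replicate 3, 256 and 112 without old 48 replicate 1, and 277 and 32 without young 72 replicate 2. They were 36 and 3 without old 72 replicate 2, 53 and 6 without old 48 replicate 2, and 149 and 38 without old 72 replicate 3. Without young 48 replicates 1 and 3 in turn they were 44 and 4, and 55 and 14, and without young 72 replicates 1 and 3 in turn 148 and 25, and 51 and 44. Without replicate 3 of both young groups they were 9 and 9.

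**Figure D5:**
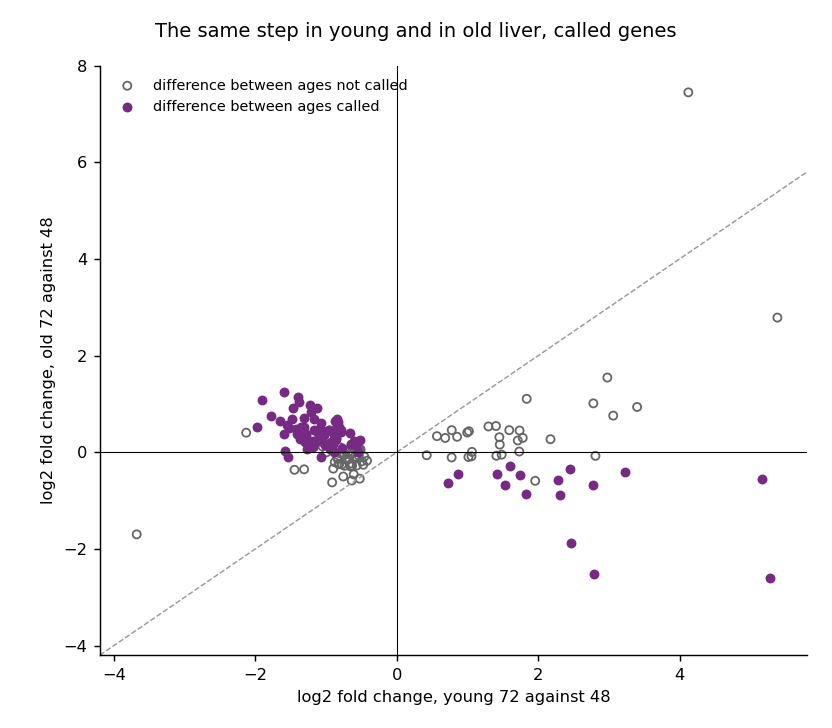
Log2 change from 48 to 72 in old liver against that in young liver for the 165 genes called in young liver, with filled points for the genes whose difference between ages was called. The 117 genes that fell in young liver have an old median of 0.20, and the 48 that rose have one of -0.02.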

How the data were processed

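The deposited tables hold raw read counts per gene symbol for each library, whole numbers per the file headers and values, which the authors made from reads. The submitters' processing notes name STAR 2.7.5b, featureCounts, Trimmomatic 0.39, SAMtools 1.10, Picard 2.20.8, FastQC 0.11.9 and bcl2fastq 2.20.0, and the builds GRCm38 and mm10. Their roles, the annotation and the strand setting are not given in the sources used here, so reads of a gene and an antisense partner cannot be told apart. The labels mention ERCC spike-ins, and the tables held 0 ERCC rows.

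Of 21955 symbols, 13436 passed filterByExpr. One mean per group was fitted to all 36 libraries with edgeR 4.0.16 in R 4.3.3 (TMM scaling, quasi-likelihood test, Benjamini-Hochberg adjustment over all genes tested, threshold 0.05), so that the 12 groups share 1 estimate of the spread. CPM are counts divided by the TMM-scaled library size, in the usual unit. SE are those of the log2 change. Replicates of both groups differed by more than sampling noise.

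The groups and the 41 gene lists were chosen with earlier results of these data known. Lists are described by counts and medians without a test, and 1 called member is not reported by name here. Named genes were the 10 called genes with the largest change in each direction (mean CPM of at least 1, groups not overlapping, predicted genes left out), up to 4 called members of each list or its member with the smallest p, a set of known markers whatever their result, and the 4 with the smallest p for the difference between ages. Alternatives were DESeq2 1.42.0, other scalings and filters, other sets of libraries, a replicate block, a term for Y-linked transcripts and leave-outs. On data simulated for the young step (13359 genes, 200 changed), 46% of 2-fold and 88% of 4-fold changes were called and 3 calls were false. For the difference between ages these were 17%, 75% and 8. The simulation gave all groups the same spread for each gene, whereas the groups here were unequal, so it does not check that assumption. Coordinates and upstream windows are from RefSeq on GRCm38.p6, matched by symbol.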

Additional observations from a re-analysis of the deposited data

Results flagged for a closer look

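For 37 of the 94 named genes the change from 48 to 72 differed between old and young liver, by an edgeR test of the difference itself with adjusted p-values from 0.00658 to 0.0468. Over all 13436 genes tested, 1.94% had a called positive and 0.447% a called negative difference. In a fit of the 12 libraries compared alone 0 differences were called, with a smallest adjusted p of 0.184. Values are the old change minus the young change on the log2 scale. The young libraries enter both the choice of many of these genes and the difference. Cdkn2c, Eri2, Gas2l3 and Lin54 met the naming rule by the smallest p in this same test, so their passing follows from the choice.

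In 29 genes the difference was positive. Among cyclins, kinases and their regulators it was 4.89 for Ccnb1, 3.20 for Cdk1, 3.09 for Cdkn2c and 1.37 for Lin54. For genes of spindle, kinetochore, condensin and cytokinesis it was 4.08 for Ube2c, 2.83 for Smc2, 2.79 for Gas2l3, 2.49 for Cenpu, 2.43 for Spc25, 2.38 for Ncapg2, 1.98 for Tuba1b and 1.65 for Bub3. Replication and repair genes had 2.99 for Fancb, 2.13 for Mcm8, 2.01 for Rrm1, 1.91 for Xrcc2, 1.78 for Fen1, 1.65 for Mcm7, 1.62 for Brca2, 1.31 for Fancm and 1.30 for Topbp1. Histone genes and their acetyltransferase had 2.53 for H2afx, 1.60 for Hat1, 1.42 for Hist1h4d, 1.15 for Hist1h1e and 1.15 for Hist1h4c. The RNA processing genes Lsm3, Eri2 and Gemin6 had 2.31, 2.22 and 1.44. In the young step itself Ccnb1, Cdk1, Cdkn2c, Gas2l3 and Ube2c were not called.

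In 8 genes the difference was negative: -7.88 for Gpnmb, -5.31 for Cpxm1, -4.34 for Spp1, -3.65 for Ssc5d, -3.47 for Col1a1, -3.19 for Adamts12, -2.84 for Col1a2 and -2.80 for Col3a1. All 8 were called higher at 72 in young liver, and Cpxm1 was called lower at 72 in old liver.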

How the results depend on the processing

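The counts of called genes moved with the spread assumed and with single libraries, and the directions of the called named genes did not. For the young step the counts higher and lower at 72, 48 and 117 as reported, were 27 and 17 with total-count scaling, 26 and 76 without the filter, 90 and 246 with DESeq2, 1 and 0 in the 6 libraries alone, 165 and 359 in the 18 young libraries, 72 and 180 with a term for Y-linked transcripts, and 18 and 8 in libraries without them. For the difference between ages, 260 positive and 60 negative as reported, they were 170 and 38 with total-count scaling, 349 and 113 with DESeq2, 0 and 0 in the 12 libraries compared alone, with 1407 at an unadjusted p under 0.05, and 5 and 4 in libraries without Y-linked transcripts. Chosen after seeing the data, a term for Y-linked transcripts in each age gave 82 and 196 for the young step, and leaving out both young libraries with them gave 0 and 0 for the step and 9 and 9 for the difference. Leaving out 1 library at a time gave 0 to 55 higher and 7 to 147 lower, and 3 to 293 negative and 36 to 555 positive differences. A fit that leaves 2 libraries in a group assumes that they vary like the other groups.

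Whether replicate numbers pair the samples was not settled. The deviations of same-numbered libraries from their group means correlated at 0.29, -0.04 and 0.23. Young 48 replicates 1 and 3 correlated best with their own number, and replicate 2 did not. With a replicate block the counts were 78 and 172.

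Of the 94 named genes, 44 were called, 29 of these in most of the alternatives and 0 in all. Of the 50 not called, 9 were called under some alternative, and 7 changed sign. With total-count scaling the log2 change of Alb was 0.020 and that of Hgf 0.033. In libraries without Y-linked transcripts Nr1h4 had -0.013 and Pck1 -0.10, and without both young libraries that hold them -0.017 and -0.11. Leaving out 1 library gave -0.80 to 0.22 for Cyp2e1, -0.18 to 0.076 for Hgf, -0.15 to 0.033 for Alb, -0.47 to 0.020 for Afp, -0.19 to 0.53 for Ccnd1 and -0.038 to 0.21 for Pck1. The cause of these shifts was not tested, other than that fewer libraries entered the leave-outs. With 3730281 to 6034446 counts a library, genes near 0.490 to 0.776 CPM rest on 3 counts.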

Other observations

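The following genes were picked, after their values were seen, from the 117 called lower at 72 in young liver (edgeR's quasi-likelihood test) that no list holds. They are single genes, and no group was tested. Nxt1, a cofactor of mRNA export, was at 37.3, 27.7 and 33.0 CPM at 48 and 15.7, 17.7 and 13.2 CPM at 72, a log2 change of -1.07 ± 0.16 (edgeR adjusted p = 0.00133). Ndc1, a transmembrane nucleoporin, had -1.48, Cse1l, which recycles importin alpha, -0.94, Xpo1, the main exportin, -0.89, Kpnb1, importin beta, -0.67, and Lbr, the lamin B receptor, -0.96. Cbx5, heterochromatin protein HP1 alpha, was at 334, 332 and 360 CPM at 48 and 185, 214 and 148 CPM at 72 (log2 change -0.91 ± 0.15, edgeR adjusted p = 0.00639). Suv39h1, a histone H3 lysine 9 methyltransferase, had -1.22 and Suz12, of the Polycomb repressive complex, -0.75. The 48 libraries lay above the 72 libraries in each of these genes, as in 116 of the 117.

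From the 48 genes called higher, Ppargc1b and Gm1600, which no list holds, were likewise picked after their values were seen. Ppargc1b, a coactivator that works with nuclear receptors such as Esrra, had a log2 change of 1.4 ± 0.30 (edgeR adjusted p = 0.0249). Gm1600, a predicted gene, had 4.12 in young liver and 7.44 in old liver (edgeR adjusted p = 0.00885 for the latter). In young liver it was at 0.327, 0.259 and 0 CPM at 48 and 2.87, 4.37 and 5.34 CPM at 72. The values at 48 lie under 3 counts in each library, so the size of the young change is uncertain.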
